A study of Rattus norvegicus with 24 samples.

Results

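Somatostatin and the receptors that read it were followed through 24 mRNA libraries of the rat brain. The members were the rows of the gene count table named Sst, Cort, Sstr1, Sstr2, Sstr3 or Sstr4. Of these 6 names, 5 had a row among the 35032 genes of the table, and Cort, the gene of the related peptide cortistatin, is not analysed here. Sst encodes the peptide somatostatin and Sstr1 to Sstr4 encode its receptors.

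Somatostatin is an inhibitory neuropeptide. Neurons of the hypothalamic periventricular zone, which borders the paraventricular nucleus, send it to the pituitary portal blood, where it restrains the release of growth hormone and thyrotropin, and many GABAergic neurons of the central nucleus of the amygdala (CEA) and the cortex contain it as well. Its receptors couple to inhibitory Gi/o proteins, which lower cyclic AMP, open inwardly rectifying potassium channels and close voltage-gated calcium channels.

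The rats were male Sprague-Dawley animals of 7 weeks at purchase, left unoperated (normal control, NC), given a partial hepatectomy alone (HT), or operated likewise and needled on 1 side at Zusanli and Sanyinjiao, with current before and right after the operation (electroacupuncture, EA) or with the needles not connected (sham, SEA). NC and HT rats were held in the same restraint for the same time, so restraint was common to all groups, and tissue was taken a day after the last stimulation. Each region and treatment had 3 libraries, 8 groups in all. The nuclei were dissected with the Allen Atlas as the guide. The hypothalamic samples are labelled PVN, an abbreviation that is usual for the paraventricular nucleus but that the study writes out as periventricular nucleus, so whether the periventricular Sst neurons lay inside the sampled tissue cannot be told from the label. The methods name 12 rats and 24 libraries without tying the numbers together, and say that the brain samples came from different animals of the same batch. Which PVN and CEA libraries share a rat, if any, was not given in the sources used here. The p-values below measure only the spread between these libraries, which may be partly technical.

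Total counts ran from 13152772 to 18607032 per library. The labelled regions were checked against 10 lists of markers. The 8 genes of PVN and periventricular neurosecretory neurons other than Sst (Avp, Oxt, Crh, Trh, Otp, Sim1, Pou3f2 and Brs3) summed to 442 to 1361 CPM (read counts scaled to library size) in the PVN and 51.1 to 199.7 CPM in the CEA, with no more than 2 of the 8 at 0 in any CEA library. The list of central amygdala neurons summed to 475 to 890.4 CPM in the CEA and 362 to 464 CPM in the PVN, but its genes did not run together. Of the 9 found, 5 passed the test as higher in the CEA and 4 as lower (Crh, Nts, Dlk1 and Isl1, with Dlk1 at 12.6 CPM in the CEA and 111 CPM in the PVN on average). Prkcd, which the thalamus list also holds, had the largest mean of the list in the CEA, at 293 CPM with a range of 20.1 to 552. The CEA libraries in addition held 2323 to 7094 CPM of striatal markers, against 314 to 479.7 CPM in the PVN, and 98.2 to 1272 CPM of thalamic markers, against 547 to 980.4 CPM. The thalamic genes did not run together either, and of the 7 tested 2 passed as higher in the CEA and 2 as lower. On average Slc17a6 and Calb2 were at 335 and 219 CPM in the PVN and 125 and 30.4 CPM in the CEA. Prkcd and Plekhg1 were at 96.8 and 54.3 CPM in the PVN and 293 and 99.0 CPM in the CEA. Choroid plexus markers summed to 1799 CPM in CEA SEA library 2, 1064 CPM in CEA NC library 2 and 378 CPM in CEA EA library 1, to at most 25.9 CPM in the other CEA libraries and to 10.6 to 18.05 CPM in the PVN. Cldn5, a vessel marker, was at 0 in all 24 libraries, while Flt1 and Vwf of the same list were present. These averaged 75.0 and 76.7 CPM in the PVN and 119 and 135 CPM in the CEA, so the 0 of Cldn5 does not mean that vessel cells were absent. Libraries 1 and 3 of PVN NC stood apart from the rest of the PVN: genes longer than 4000 bases took 21.3% and 22.4% of their CPM, against 24.2% to 26.4% in the other 10 PVN libraries. Library 2 of CEA EA, as numbered by the table's first header, stood apart as well, with 3.80% of its counts from mitochondrial genes against 10.1% to 14.4% in the other CEA libraries. A CEA EA set, not named by its number, was left out of the network analysis of the study for standing apart.

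Transcription of Sst answers to cyclic AMP through a cyclic AMP response element, the palindrome TGACGTCA, which the factor CREB binds. The RefSeq promoter windows of the members (build GRCr8, 250 bases before to 50 bases from the annotated start) were searched for it. All 5 members had a window. The element stood in the windows of Sst and Sstr2 and in none of the other 3, while 1.83% of all 33469 rat promoter windows held it. The shorter core TGACG, searched on both strands, stood outside the full element in 1 member, Sstr1, on the minus strand with its lowest coordinate 15 bases before the start, and 21.2% of all windows held the core, inside or outside the full element. The Sst window, on the plus strand of chr11:90461296-90461595, is shown because the treatment results turn on Sst, and that of Sstr2, on the plus strand of chr10:99163103-99163402, because it was the only receptor window with the same element. Capitals mark the element, which lay at bases 3 to 10 counted from the annotated start of Sst and 73 to 66 bases before that of Sstr2.
Sst: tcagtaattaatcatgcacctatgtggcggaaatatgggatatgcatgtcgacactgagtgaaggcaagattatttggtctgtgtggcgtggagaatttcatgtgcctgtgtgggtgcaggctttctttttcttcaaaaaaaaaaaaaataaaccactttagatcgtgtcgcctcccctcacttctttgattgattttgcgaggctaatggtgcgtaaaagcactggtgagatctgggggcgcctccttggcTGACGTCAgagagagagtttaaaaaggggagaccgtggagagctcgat
Sstr2: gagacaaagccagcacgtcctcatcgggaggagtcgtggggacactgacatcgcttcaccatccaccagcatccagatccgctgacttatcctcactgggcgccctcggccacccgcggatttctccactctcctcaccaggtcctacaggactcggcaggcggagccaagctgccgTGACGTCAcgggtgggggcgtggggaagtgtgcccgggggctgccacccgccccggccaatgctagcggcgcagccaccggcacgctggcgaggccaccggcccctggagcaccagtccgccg
GC content was 45.7% in the Sst window and 53.7% to 71.7% in the receptor windows, with a median of 51.7% over all windows. A match to these letters is a description of the sequence and says nothing of binding in these samples.

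In the table's own coordinates, whose build is not named, Sst (ENSRNOG00000001837) lies on the plus strand of chromosome 11 from 80358211 to 80359444 and has a counted length of 613 bases. Sstr1 (ENSRNOG00000048145) lies on chromosome 6 from 79254339 to 79258611, plus strand, with 3906 bases. Sstr2 (ENSRNOG00000002793) lies on chromosome 10 from 102136283 to 102143434, plus strand, with 2088 bases. Sstr3 (ENSRNOG00000007332) lies on chromosome 7 from 119760888 to 119768082, minus strand, with 3878 bases. Sstr4 (ENSRNOG00000004641) lies on chromosome 3 from 142739781 to 142741644, plus strand, with 1864 bases. Sst was thus the shortest member by a wide margin.

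Per kilobase of gene length, Sst was far above every receptor in every library. Its level was 437 ± 139 CPM per kilobase (SD, n = 12) in the PVN and 277 ± 65.1 (SD, n = 12) in the CEA. Ranked per length among 22250 protein-coding genes, it stood between position 48 and position 218 in the PVN libraries and between 164 and 378 in the CEA libraries. The summed receptor level was 19.6 ± 1.24 CPM per kilobase (SD, n = 12) in the PVN and 8.96 ± 2.21 (SD, n = 12) in the CEA. The ratio of Sst to the summed receptors ran from 15.3 to 36.8 in the PVN, with a median of 20.02, and from 20.6 to 61.1 in the CEA, with a median of 29.1.

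The receptors kept a fixed order in the PVN. Per length, Sstr1 stood above Sstr2, Sstr2 above Sstr3 and Sstr3 above Sstr4 in all 12 PVN libraries, at 8.26 ± 0.488, 6.01 ± 0.952, 3.46 ± 0.445 and 1.89 ± 0.351 CPM per kilobase (SD, n = 12 each). As a share of the summed receptor level per library, Sstr1 took 38.5% to 47.2%, Sstr2 25.1% to 35.8%, Sstr3 14.5% to 20.1% and Sstr4 5.20% to 12.5%, so that no 2 neighbouring shares overlapped. The level of Sstr1 was the steadiest of the 5 members, with a coefficient of variation of 5.92% over the 12 PVN libraries.

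In the CEA the receptor order was not fixed, and the same full order held in 2 of 12 libraries. Sstr2 was the highest receptor per length in 6 CEA libraries, Sstr1 in 5 and Sstr3 in 1. The levels per kilobase were 2.66 ± 0.765 for Sstr1, 2.96 ± 1.25 for Sstr2, 1.65 ± 0.449 for Sstr3 and 1.70 ± 0.496 for Sstr4 (SD, n = 12 each), so neither Sstr1 and Sstr2 nor Sstr3 and Sstr4 differed beyond their spread. Sstr5, which is not a member and is given only to complete the family, was at 0.639 ± 0.179 CPM per kilobase in the PVN and 0.370 ± 0.195 in the CEA (SD, n = 12 each), on 1 to 24 counts.

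**Figure D1:**
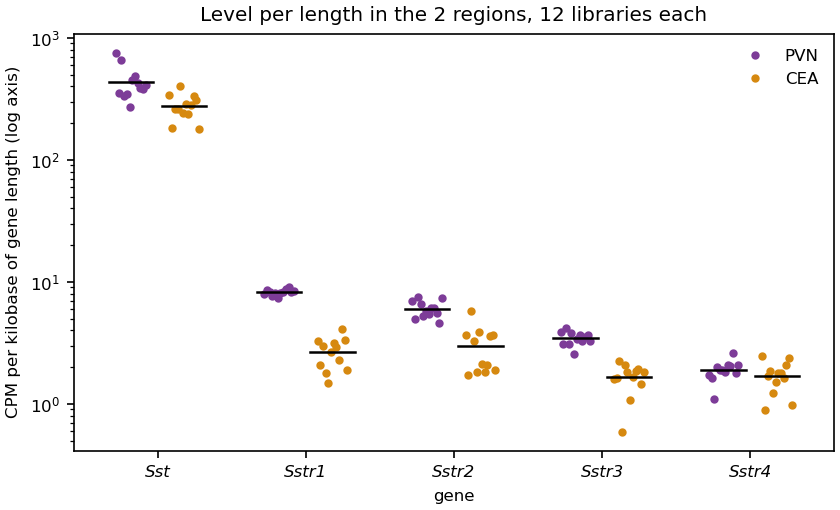
Level of each member per kilobase of gene length (CPM per kilobase, log axis) in the 12 PVN and 12 CEA libraries; points are libraries and bars are means. Sst lies far above the receptors in both regions, Sstr1 and Sstr3 are separated between the regions, and Sstr4 is not.

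To ask how the regions differ, the CEA was compared with the PVN over all 4 treatments, with treatment as a term. Sst, Sstr1, Sstr2 and Sstr3 were lower in the CEA and Sstr4 did not pass the test. Of all genes tested, 56.3% passed in this comparison (60.7% before adjustment and 57.5% in DESeq2) and 29.4% were lower in the CEA, so 4 of 5 members is to be read against a background in which most genes differed. The values here and below are normalised read counts in CPM.

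Sstr1, which is known as an autoreceptor of hypothalamic somatostatin neurons, ran from 28.9 to 35.8 CPM in the PVN, with a median of 32.2, and from 5.76 to 16.0 CPM in the CEA, with a median of 10.9. The regions did not overlap, with a log2 fold change of -1.65 (SE 0.11, edgeR adjusted p = 1.43e-11). Sstr3, a receptor known for its place in neuronal primary cilia, ran from 9.85 to 16.3 CPM in the PVN, with a median of 13.4, and from 2.29 to 8.75 CPM in the CEA, with a median of 6.72. It too did not overlap, with a log2 fold change of -1.07 (SE 0.14, edgeR adjusted p = 5.94e-07), where 7.87% of all genes tested were lower in the CEA without overlap.

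Sstr2, the receptor that most clinical somatostatin analogs bind, ran from 9.58 to 15.8 CPM in the PVN, with a median of 12.4, and from 3.61 to 12.1 CPM in the CEA, with a median of 5.63. The regions overlapped because NC library 3 of the CEA was high, with a log2 fold change of -1.05 (SE 0.17, edgeR adjusted p = 1.12e-05). Sst itself ran from 165 to 463 CPM in the PVN, with a median of 243, and from 109 to 248 CPM in the CEA, with a median of 167. It overlapped, with a log2 fold change of -0.63 (SE 0.15, edgeR adjusted p = 0.00104).

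Sstr4 ran from 2.05 to 4.85 CPM in the PVN and from 1.66 to 4.62 CPM in the CEA, with a log2 fold change of -0.14 (SE 0.15, edgeR adjusted p = 0.439). It rested on 23 to 81 counts per library. Oligodendrocyte markers, 6 of 6 found, summed to 9784 to 16422 CPM in the PVN and 25886 to 42998 CPM in the CEA, and the striatal and neurosecretory sums above moved with region as well. Their part in the differences was not tested. Without CEA EA library 2 the same 4 members passed, with Sst at -0.60 (edgeR adjusted p = 0.00227). In whole tissue, fewer cells of a type and less RNA per cell cannot be told apart.

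In unoperated rats alone, the same comparison called Sst, Sstr1 and Sstr3 lower in the CEA, 3 of 5 members, where 26.4% of all genes tested passed, 40% before adjustment and 29.2% in DESeq2, and 13.7% were lower. All 3 were lower without overlap, as 23.8% of genes were. The log2 fold changes were -1.17 for Sst (SE 0.32, edgeR adjusted p = 0.0330), -1.57 for Sstr1 (SE 0.18, edgeR adjusted p = 0.00167) and -1.03 for Sstr3 (SE 0.21, edgeR adjusted p = 0.0114). The Sst call was lost when any of PVN NC libraries 1 or 3 or CEA NC libraries 2 or 3 was left out (edgeR adjusted p = 0.0962 to 0.0993), and the fold change then ran from -1.17 to -0.95. Sstr2 had a log2 fold change of -0.80 (SE 0.40, edgeR adjusted p = 0.181) and of -0.92 (SE 0.25, edgeR adjusted p = 0.0450) with same-numbered libraries paired, where 27.5% of genes were called. Leaving out 1 library moved it from -1.26 without CEA NC library 3 to -0.45 without CEA NC library 2, without a call. Sstr4 was at 0.19 (SE 0.40, edgeR adjusted p = 0.756).

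The question of the treatments was whether hepatectomy moved these genes and whether electroacupuncture moved them back. No member passed edgeR's test at an adjusted p of 0.05 in any of the 10 treatment comparisons or when all operated groups were set against NC. Sst in the PVN came nearest, and its values are given in full.

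In the PVN, Sst was at 463, 216 and 401 CPM in the NC libraries, 205, 213 and 165 CPM in HT, 274, 300.2 and 259.5 CPM in EA, and 237, 232 and 249.7 CPM with sham. The NC mean was 360.0 ± 128, the HT mean 194 ± 25.9, the EA mean 278 ± 20.6 and the SEA mean 239.5 ± 9.12 (SD, n = 3 each). HT, SEA and EA did not overlap, in that order from low to high. How many of all genes showed the same order of 3 groups was not counted, and shares for each pair are given below. NC library 2 sat just above the highest HT library and below every SEA and EA library, while NC libraries 1 and 3 were above all others.

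**Figure D2:**
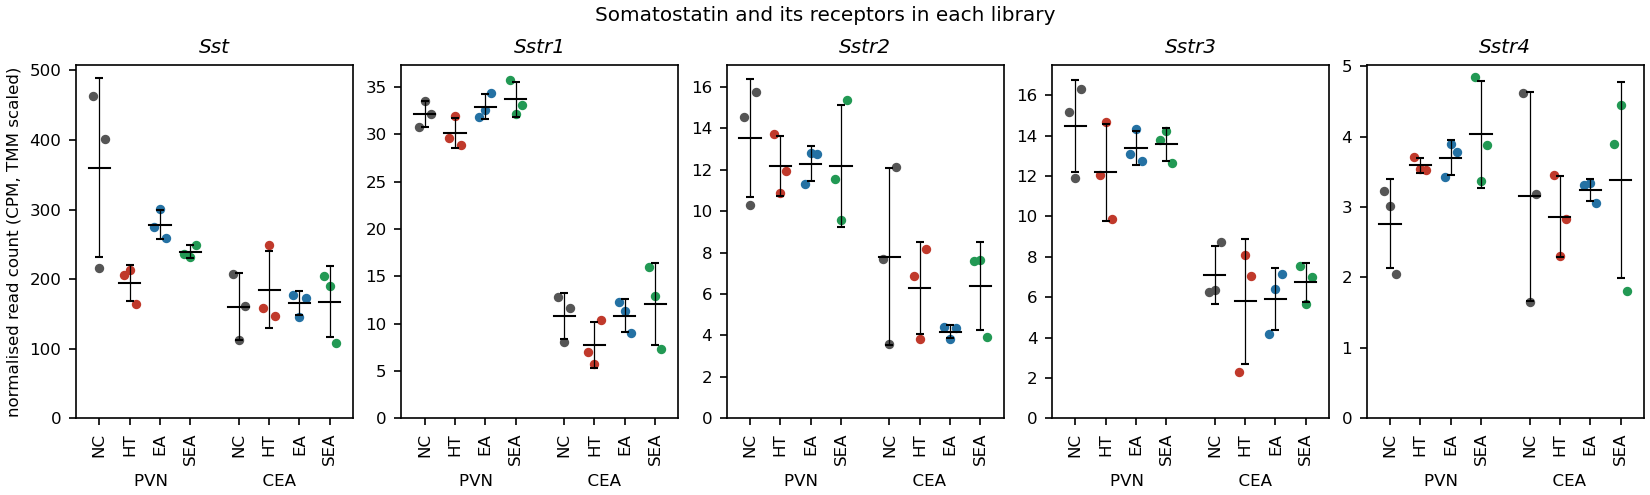
Normalised read count (CPM) of each member in each library by region and treatment; points are libraries, horizontal bars are means and vertical bars are ± SD (n = 3). In the PVN the HT, SEA and EA points of Sst form separate layers and NC spreads from 216 to 463 CPM, while the receptors overlap in most groups.

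From NC to HT, PVN Sst had a log2 fold change of -0.89, a fold of 0.540 (SE 0.26, edgeR adjusted p = 0.418). It was lower in all 3 HT libraries than in all 3 NC libraries, as 8.23% of all genes tested were, and Sstr4 was higher without overlap, as 8.88% were. None of the 5 members was called, where 0.012% of genes were called by edgeR (2 of 16727), and 1 member had an unadjusted p under 0.05 in edgeR, as 11% of genes did. DESeq2 called no member after adjustment, and 0.171% of genes, and 1 member before adjustment, when 11.3% of genes passed. Without NC library 2, the log2 fold change was -1.16 and Sst was called (edgeR adjusted p = 0.00118), but so were 20.2% of all genes tested. Without NC library 1 it was -0.68 (edgeR adjusted p = 0.801). The high NC values, 463 and 401 CPM, were those of libraries 1 and 3, which stood apart in their share of long genes, while library 2, with 25.4% of its CPM in genes over 4000 bases, lay within the range of the other PVN groups and held 216 CPM of Sst. Blood and vessel markers summed to 1095 to 1442 CPM in NC and 646 to 954 CPM in HT. Of the 5 tested, 1 was higher and 1 lower at an unadjusted p under 0.05 in edgeR. Choroid plexus markers summed to 14.0 to 18.05 CPM in NC and 10.6 to 12.04 CPM in HT. The part of these markers in the Sst value was not tested.

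From HT to EA, PVN Sst had a log2 fold change of 0.52, a fold of 1.43 (SE 0.10, edgeR adjusted p = 0.137). By p-value it stood at position 60 of 16641 genes tested, and it was higher in all 3 EA libraries than in all 3 HT libraries, as 5.41% of genes were. Choroid plexus markers also lay higher without overlap, at a sum of 15.3 to 16.9 CPM in EA and 10.6 to 12.04 CPM in HT. Their median log2 fold change was 0.56 over the 4 tested. These sums were low, and in the PVN Ttr averaged 1.39 CPM, against a CEA maximum of 1693 CPM, and Clic6 5.96 CPM. The choroid plexus sum correlated with Sst at 0.57 over the 12 PVN libraries. Markers of cortical and hippocampal excitatory neurons were at 0.75, of blood and vessels at 0.74 and of neurosecretory neurons at 0.65. The part of the choroid plexus markers in the Sst value was not tested. None of the 5 members was called by edgeR, which called 0.0961% of genes, and 1 member had an unadjusted p under 0.05, as 5.67% of genes did. DESeq2, with an adjusted p of 3.02e-05, called Sst among 0.558% of genes, and before adjustment it called 1 member and 4.08%. The edgeR test without a filter on low counts also called it (adjusted p = 0.0188, with 0.279% of genes called). A fit that pooled the spread of all 4 PVN groups, NC included, gave an adjusted p of 0.99997 at the same fold change.

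The sham group lay between. PVN Sst had a log2 fold change of 0.30 from HT to SEA (SE 0.09, edgeR adjusted p = 0.981) and of 0.22 from SEA to EA (SE 0.06, edgeR adjusted p = 0.917). Neither passed the test, and without HT library 3 the value from HT to SEA was 0.197 (edgeR adjusted p = 0.933). In both comparisons edgeR called 0 genes and 0 members, with unadjusted p under 0.05 for 4.38% and 5.21% of genes and for 1 member each, and DESeq2 called 0.126% and 0.145% of genes but no member, and 1 member each before adjustment, when 2.65% and 3.67% of genes passed. Groups without overlap in the same direction made up 5.1% and 5.14% of genes. EA and HT, SEA and HT, and EA and SEA share libraries, so these are not separate observations.

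EA rats did not differ from NC in PVN Sst by the test, with a log2 fold change of -0.36 (SE 0.24, edgeR adjusted p = 0.514) in a comparison where edgeR called 0.0119% of genes, 10.1% had an unadjusted p under 0.05 and DESeq2 called 0.346%. Sstr4 was the only member without overlap there, higher in EA, as 7.37% of genes were. Without NC library 2 the log2 fold change was -0.62 (edgeR adjusted p = 0.00372), with 19% of genes called, and without NC library 1 it was -0.16 (edgeR adjusted p = 0.862). All 9 operated PVN libraries against the 3 NC libraries gave a log2 fold change of -0.62, a fold of 0.652 (SE 0.16, edgeR adjusted p = 0.0778), with 0.0639% of genes called. Of the members 2 had an unadjusted p under 0.05 in edgeR, as 29.8% of genes did, and 2 in DESeq2, as 28.3% did. DESeq2 called Sst there (adjusted p = 0.00925) together with 16.7% of genes, and edgeR without NC library 2 called it (adjusted p = 1.31e-05, log2 fold change -0.88) together with 33.7%. Without NC library 1 the value was -0.39 (edgeR adjusted p = 0.353).

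**Figure D3:**
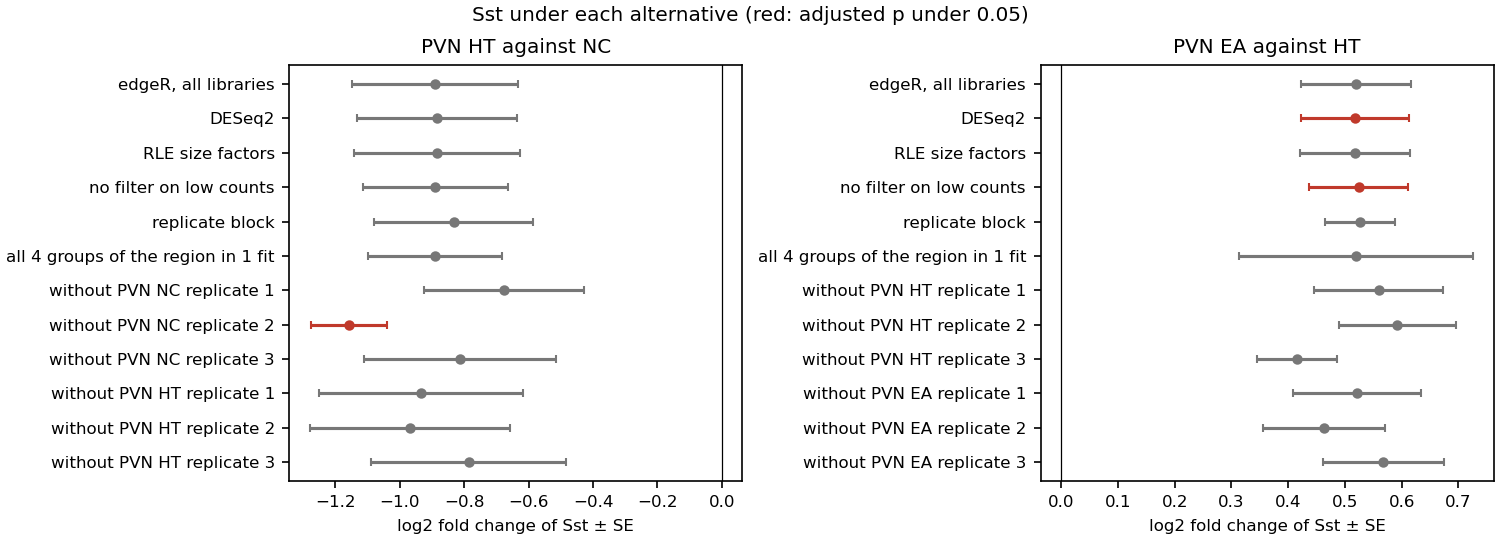
Log2 fold change of Sst (± SE) in the PVN from NC to HT and from HT to EA under each alternative of test, filter, block and left-out library; red marks an adjusted p under 0.05. The sign is the same under every setting, and 1 setting at left and 2 at right pass the threshold.

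Shorter and longer genes differed in their fold changes between the PVN groups, which bears on Sst because of its 613 bases. From NC to HT, protein-coding genes under 1000 bases had a median log2 fold change of -0.16 (1485 genes) and those over 4000 bases one of 0.12 (3024 genes), and the Spearman correlation of length with fold change across 14610 genes was 0.30. The Sst value of -0.89 lay well below the median of its length class. From HT to EA no such trend was present, with a correlation across 14553 genes of 7.9e-04 and a median of 0.0016 among 1461 genes under 1000 bases. Genes are not independent replicates, and the part of length in the Sst value was not tested.

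**Figure D4:**
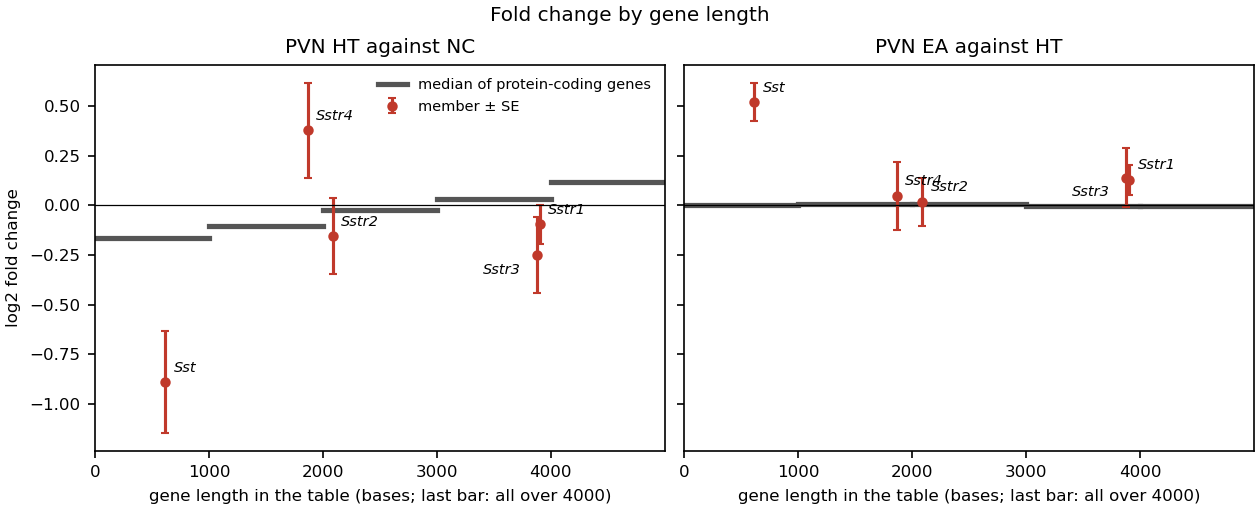
Log2 fold change of the members (± SE) against gene length in the table, with the median of protein-coding genes in each length class as grey bars. From NC to HT the bars rise from -0.16 to 0.12 with length and Sst lies below them at -0.89, while from HT to EA the bars are flat and Sst lies above them at 0.52.

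No PVN receptor passed the test. Sstr1 was at 30.8, 33.6 and 32.2 CPM in the NC libraries, 29.7, 31.9 and 28.9 CPM in HT, 31.8, 32.5 and 34.4 CPM in EA, and 35.8, 32.2 and 33.1 CPM with sham. NC, HT and EA overlapped, and SEA lay above HT. From NC to HT it had a log2 fold change of -0.096 (SE 0.10, edgeR adjusted p = 0.629) and from HT to EA of 0.13 (SE 0.08, edgeR adjusted p = 0.918). In both comparisons its SE was the smallest of the 5 members.

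Sstr2 was at 14.6, 10.3 and 15.8 CPM in the NC libraries, 13.7, 10.9 and 11.9 CPM in HT, 11.3, 12.8 and 12.8 CPM in EA, and 11.6, 9.58 and 15.4 CPM with sham. All groups overlapped, and NC library 2 was the lowest of its group here as for Sst. The log2 fold changes were -0.15 from NC to HT (SE 0.19, edgeR adjusted p = 0.696) and 0.018 from HT to EA (SE 0.12, edgeR adjusted p = 0.995). Sstr3 was at 15.2, 11.9 and 16.3 CPM in the NC libraries, 12.04, 14.7 and 9.85 CPM in HT, 13.1, 14.3 and 12.7 CPM in EA, and 13.8, 14.2 and 12.7 CPM with sham. Again NC library 2 was the lowest of NC and the groups overlapped, with log2 fold changes of -0.25 (SE 0.19, edgeR adjusted p = 0.532) and 0.14 (SE 0.15, edgeR adjusted p = 0.974). With 1 library left out, these Sstr3 values ran from -0.41 to -0.12 and from 0.0097 to 0.29. Sstr2 from NC to HT then ran from -0.32 to -0.036.

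Sstr4 was at 3.23, 3.02 and 2.05 CPM in the NC libraries, 3.71, 3.54 and 3.52 CPM in HT, 3.43, 3.90 and 3.78 CPM in EA, and 4.85, 3.37 and 3.88 CPM with sham. All 9 operated libraries lay above all 3 NC libraries, as 2.16% of genes tested did. The log2 fold change of operated against NC was 0.45 (SE 0.17, edgeR adjusted p = 0.116), on 37 to 81 counts per PVN library, and from NC to HT it was 0.38 (SE 0.24, edgeR adjusted p = 0.470). Without NC library 3, the lowest for Sstr4, these values were 0.28 and 0.19. From HT to EA it was 0.049 (SE 0.17, edgeR adjusted p = 0.995). Across all operated libraries against NC, Sstr1, Sstr2 and Sstr3 had log2 fold changes of -8.86e-04, -0.15 and -0.15 (SE 0.06, 0.15 and 0.12), and none was called.

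**Figure D5:**
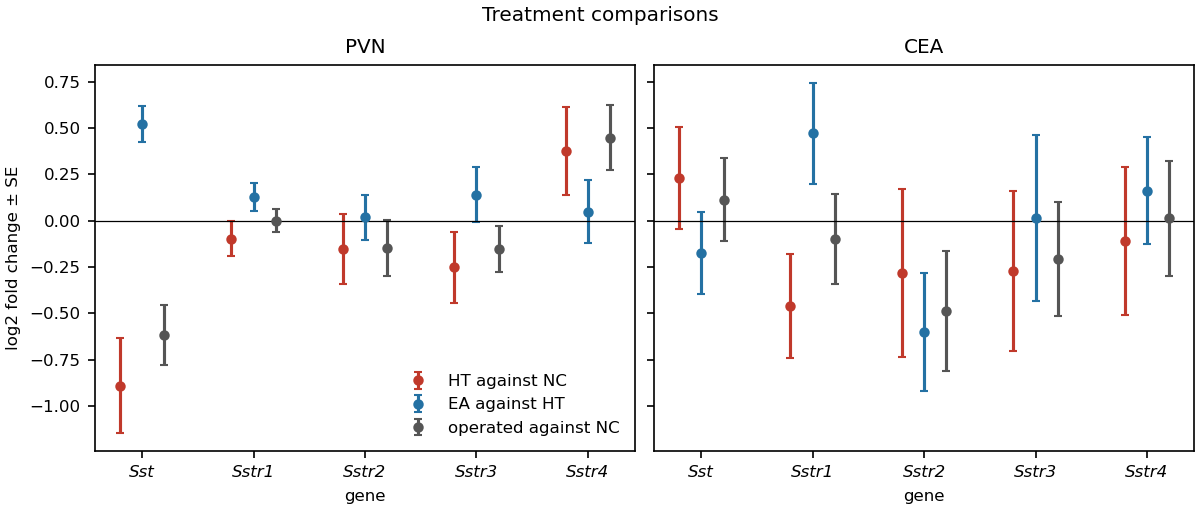
Log2 fold change (± SE) of each member for HT against NC, EA against HT and all operated groups against NC, in the PVN at left and the CEA at right. Within the PVN the Sst points lie farthest from 0 in each comparison. The PVN points of Sstr1, Sstr2 and Sstr3 lie between -0.25 and 0.14, and those of Sstr4 reach 0.45. In the CEA the error bars are wide, with Sstr2 at -0.60 for EA against HT.

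In the CEA, Sst showed no order by treatment. It was at 208, 113 and 161 CPM in the NC libraries, 159, 248 and 148 CPM in HT, 177, 146 and 173 CPM in EA, and 204, 189.9 and 109 CPM with sham, and all groups overlapped. The log2 fold change was 0.23 from NC to HT (SE 0.27, edgeR adjusted p = 0.920) and -0.17 from HT to EA (SE 0.22, edgeR adjusted p = 0.941). HT library 2, the highest for Sst, also had the largest share of CPM in genes under 1000 bases (9.73%, against 5.57% to 7.33% in the other CEA libraries). Without it the fold changes were -0.035 and 0.10, so that library set their signs, and without EA library 2 the value from HT to EA was -0.091. Over all libraries, CEA medians of protein-coding genes under 1000 bases were 0.19 from NC to HT and -0.21 from HT to EA. The part of length in the CEA values of Sst was not tested.

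Each receptor varied more over the 12 CEA than over the 12 PVN libraries, with a coefficient of variation of 28.8% against 5.92% for Sstr1, 42.4% against 15.8% for Sstr2, 27.3% against 12.9% for Sstr3 and 29.3% against 18.6% for Sstr4. Sstr1 was at 12.8, 8.11 and 11.6 CPM in the NC libraries, 7.05, 5.76 and 10.4 CPM in HT, 12.2, 11.4 and 8.96 CPM in EA, and 16.0, 12.9 and 7.33 CPM with sham. Sstr2 was at 7.68, 3.61 and 12.1 CPM in the NC libraries, 6.86, 3.84 and 8.17 CPM in HT, 4.39, 3.81 and 4.37 CPM in EA, and 7.59, 7.66 and 3.94 CPM with sham. For both genes the groups overlapped, and Sstr2 had its lowest mean and its smallest spread in EA. Without EA library 2, which stood apart, the log2 fold change of Sstr2 from HT to EA was -0.54 (SE 0.37, edgeR adjusted p = 0.999), and that of Sstr3 went from 0.015 to -0.047.

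From NC to HT the CEA log2 fold changes were -0.46 for Sstr1 (SE 0.28), -0.28 for Sstr2 (SE 0.45), -0.27 for Sstr3 (SE 0.43) and -0.11 for Sstr4 (SE 0.40), with edgeR adjusted p-values from 0.918 to 0.970. From HT to EA they were 0.47 (SE 0.27), -0.60 (SE 0.32), 0.015 (SE 0.45) and 0.16 (SE 0.29), with edgeR adjusted p-values from 0.930 to 0.999. For operated against NC they were -0.099, -0.49, -0.21 and 0.013, with 0.11 for Sst, all at an edgeR adjusted p of 0.9998. The Sstr2 value was -0.018 without NC library 3 and -0.83 without NC library 2. With 1 library left out, Sstr1 ran from -0.73 to -0.28 for NC to HT and from 0.30 to 0.75 for HT to EA. Sstr2 for HT to EA ran from -0.85 to -0.36. Sstr3 fell between 2.29 and 8.75 CPM and Sstr4 between 1.66 and 4.62 CPM over the 12 CEA libraries, with overlap in every treatment comparison.

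In these CEA comparisons edgeR called 0 members and 0 genes, apart from 0.00606% of genes for EA against NC. No member had an unadjusted p under 0.05 in edgeR, and the share of all genes that did was 3.75% for HT against NC, 3.19% for EA against HT, 3.07% for SEA against HT, 1.99% for EA against SEA, 4.42% for EA against NC and 2.82% for operated against NC. DESeq2 called no member after adjustment in any of them and 0.146%, 0.0304%, 0.0183%, 0.0307%, 0.218% and 0.0646% of genes in the same order. Before adjustment it called Sstr2 in EA against NC, as 4.07% of genes were. No member was without overlap, where 10.4%, 9.56%, 10.1%, 6.83%, 10.2% and 0.587% of genes were.

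The regions were compared in their responses by an interaction term. The HT effect on Sst was higher in the CEA than in the PVN by 1.10 on the log2 scale (SE 0.42, edgeR adjusted p = 0.413), and the EA effect differed by -0.70 (SE 0.26, edgeR adjusted p = 0.945), or by -0.43 without CEA HT library 2 (edgeR adjusted p = 0.759). EdgeR called 0 genes in either interaction, with 12.1% and 4.52% of genes and 1 member each at an unadjusted p under 0.05. DESeq2 called 0.00575% and 0.284% of genes and no member, and before adjustment 13.6% and 4.82% of genes and 1 member each. A difference between the regions in the response of Sst was therefore not shown. Protein-coding genes under 1000 bases, the length class of Sst, had a median of 0.33 in the HT interaction and of -0.20 in the EA interaction. The part of length in the Sst interaction values was not tested.

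The members did not vary as a block across libraries. Over the 12 PVN libraries, which share treatment groups and dissection, the Pearson correlation of log2 CPM with Sst was 0.78 for Sstr3, 0.56 for Sstr2, 0.14 for Sstr1 and -0.45 for Sstr4. In the CEA the nearest to Sst was Sstr4 at 0.62, and Sstr1 and Sstr4 correlated at 0.70. Sstr3 followed the summed neurosecretory markers in the PVN with a correlation of 0.84, and Sst did with 0.65. Sst also correlated with the markers of cortical and hippocampal excitatory neurons (0.75), of blood and vessels (0.74) and of the thalamus (-0.65). HT library 3 had the lowest neurosecretory sum of the PVN, 442 CPM against 926 to 1361 CPM in the rest, and also the lowest Sst, at 165 CPM, and the lowest Sstr3, at 9.85 CPM. Without it, the Sst log2 fold change from HT to EA was 0.42 (edgeR adjusted p = 0.117). Sstr4 ran against the oligodendrocyte markers in the CEA with a correlation of -0.92, and the part of cell makeup in these relations was not tested.

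The genes whose log2 CPM followed Sst most closely over the 12 PVN libraries, among 14620 genes with a mean of at least 1 CPM, were AABR07030823.1 at 0.97, Actb (beta-actin) at 0.96, Naa38 at 0.96, Chmp2b at 0.95 and Ahsa1 at 0.95. In all, 610 genes exceeded 0.8 and 1049 lay under -0.8, more than for any receptor, and the median lengths of these sets were 1536 and 3048 bases against 2367 bases over all 14620. Actb was at 946 and 920.1 CPM in NC libraries 1 and 3, the 2 with the highest Sst and the 2 that stood apart, and at 641 to 789 CPM in the other 10 PVN libraries, and the part of those 2 libraries in these correlations was not tested. In the CEA the nearest genes to Sst were Vstm2l at 0.92, Scg5 (the chaperone of a prohormone convertase) at 0.92, Zfp667 at 0.92, Rtn1 at 0.91 and Entpd6 at 0.90, and 98 genes exceeded 0.8. Nearest to the receptors in the PVN were Cggbp1 for Sstr1 (0.85), Msh3 for Sstr2 (0.92), Khdrbs3 for Sstr3 (0.92) and Pcgf5 for Sstr4 (0.94), and in the CEA Unc5d for Sstr1 (0.91), Ube2v2 for Sstr3 (0.96) and Tll1 for Sstr4 (0.95).

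Genes that surround somatostatin were read from 5 lists, which hold enzymes and granule proteins that process peptides, Gi/o proteins with their effectors and regulators, transcription factors of Sst or of Sst neurons, GABAergic and interneuron genes, and neuroendocrine peptides with the growth hormone axis. In no treatment comparison did edgeR call a gene of any list. In HT against NC in the PVN, the Gi/o list had 12 genes higher and 0 lower of 35 when p was under 0.05 before adjustment, as 11% of all genes did, with a median log2 fold change of 0.31 against -0.010 over all genes tested. Its median gene length was 2967 bases, and all protein-coding genes of 2000 to 3000 bases had a median log2 fold change of -0.025, those of 3000 to 4000 bases one of 0.035 and those over 4000 bases one of 0.12. The 7 thalamic markers had a median log2 fold change of 0.60 in this comparison, with 2 higher and 0 lower at an unadjusted p under 0.05, and summed to 547 to 793 CPM in NC and 803 to 980.4 CPM in HT. NC libraries 1 and 3 stood apart here too, and the part of these differences in the list was not tested. Mpdz, a scaffold protein that holds the tail of somatostatin receptors, was at 107 ± 5.95 CPM in HT and 86.2 ± 5.24 in NC (SD, n = 3 each). Kcnj3, a subunit of the potassium channels these receptors open, was at 20.4 ± 2.08 and 13.3 ± 4.19 CPM (SD, n = 3 each). Both had an edgeR adjusted p of 0.418.

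The neuroendocrine list ran the other way in the same comparison, with 1 gene higher and 5 lower of 16 at an unadjusted p under 0.05, against 11% of all genes in either direction, and a median log2 fold change of -0.23. Its median gene length was the shortest of the 5 lists, at 1562 bases, and all protein-coding genes of 1000 to 2000 bases had a median log2 fold change of -0.10. The neurosecretory markers, which share genes with the list, had a median of -0.37 with 3 of 8 lower and 0 higher at an unadjusted p under 0.05, and NC libraries 1 and 3 stood apart here as well. The part of these in the list was not tested. Ghrh, whose peptide drives growth hormone release against somatostatin, was at 2.17 ± 0.768 CPM in HT and 5.59 ± 0.956 in NC (SD, n = 3 each), a log2 fold change of -1.36 (SE 0.29). Trh, which drives the thyrotropin that somatostatin restrains, was at 72.0 ± 15.8 and 125.6 ± 24.6 CPM (SD, n = 3 each), a log2 fold change of -0.80 (SE 0.19). From HT to EA the list had 4 genes higher and 0 lower at an unadjusted p under 0.05, against 5.67% of all genes, with Trh at 0.47 (SE 0.14) and Avp, the gene of vasopressin, at 0.46 (SE 0.14). The neurosecretory markers, which include both, had 3 of 8 higher and a median of 0.26. Without HT library 3, whose neurosecretory sum was the lowest, Trh was at 0.31 and Avp at 0.32, and its part in the list was not tested. None passed edgeR's adjusted test, at 0.418 for Ghrh and Trh in HT against NC and 0.587 and 0.640 for Trh and Avp in EA against HT.

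The other 3 lists gave fewer genes in HT against NC in the PVN, to be read against the 11% of all genes with an unadjusted p under 0.05. Peptide processing had 2 of 12 higher (Pcsk2 at 0.37 and Prepl at 0.34 in log2 fold change), the transcription factors 1 of 16 (Sox6 at 0.9997, with Crtc1, a coactivator of CREB, at 0.55 but not under that limit), and the GABAergic list 0 of 17, with Gad1 at -0.24 and Cartpt at -0.49 nearest. Without NC library 2, edgeR called 9 of the 10 list genes named in this comparison, all but Cartpt, among 20.2% of all genes. With 1 library left out, the log2 fold change ran from 0.74 to 1.67 for Sox6, from 0.35 to 0.90 for Crtc1 and from -0.63 to -0.20 for Cartpt. From HT to EA the Gi/o list had 0 genes higher and 4 lower of 35 at an unadjusted p under 0.05, the processing list 0 and 2 of 12, and the transcription factor and GABAergic lists 0, against 5.67% of all genes. The 2 genes of each of these lists with the smallest p were Pcsk2 (-0.12) and Cpe (-0.15), Shank2 (-0.56) and Cacna1a (-0.23), Lhx6 (-0.54) and Satb1 (-0.22), and Cartpt (0.21) and Gad2 (0.13), with edgeR adjusted p-values from 0.461 to 0.923. The 7 thalamic markers had a median of -0.34 from HT to EA, with 0 higher and 1 lower at an unadjusted p under 0.05. They summed to 759 to 864 CPM in EA and 803 to 980.4 CPM in HT, and their part in the lists was not tested.

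In the CEA the same lists had 0 genes called, and, before adjustment, at most 1 higher and 1 lower with p under 0.05 from NC to HT or from HT to EA for any list but the GABAergic, which had 2 of 17 higher from HT to EA. Of all genes, 3.75% and 3.19% had such a p in these comparisons. The 2 were Grin3a at 0.76 and Cartpt at 0.76 in log2 fold change. Crh, which the CEA holds at 0.588 to 3.17 CPM, had the largest change of a named list gene there, from 0.902 ± 0.315 CPM in HT to 2.56 ± 0.347 in EA (SD, n = 3 each), at an edgeR adjusted p of 0.930. Penk, of the same list, was at 632 ± 137 CPM in EA and 981 ± 203 in HT (SD, n = 3 each), a log2 fold change of -0.65. Cell marker sums of EA and HT did not overlap for the striatal and the cortical and hippocampal lists, but did for the neurosecretory list. The 8 striatal markers, which include Penk, summed to 2587 to 4098 CPM in EA and 4288 to 7094 CPM in HT (median log2 fold change -0.62), the cortical and hippocampal list to 605 to 1396 and 1947 to 2133 CPM (-1.33 over the 5 tested), and the neurosecretory list, which includes Crh, to 137 to 182 and 52.4 to 189 CPM (0.79 over the 7 tested). Their part in these values was not tested.

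Between the regions the lists did split. Over 4 treatments, edgeR called 4 higher and 11 lower in the CEA of the 16 neuroendocrine genes, 5 and 5 of the 16 transcription factors, 7 and 9 of 17 GABAergic genes, 12 and 12 of 35 Gi/o genes, and 3 and 5 of 12 processing genes, against 56.3% of all genes. Otp and Sim1, the factors that build the neurosecretory hypothalamus, were at 0.613 ± 0.412 and 0.340 ± 0.300 CPM in the CEA and at 27.2 ± 2.04 and 13.3 ± 1.98 CPM in the PVN (SD, n = 12 each). Their log2 fold changes were -5.46 and -5.30, far beyond the -0.63 of Sst. Among the receptor partners, Adcy5, an adenylyl cyclase, was higher in the CEA by 2.38 on the log2 scale and Rgs4 by 1.18, while Gng2 and Gnaz were at -1.33 and -0.88. Of the interneuron genes, Pvalb (2.06) and Tac1 (1.59) were higher in the CEA and Cartpt (-3.58) and Chodl (-1.99), a marker of a class of Sst neurons, were lower.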

How the data were processed

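The 12 PVN and 12 CEA libraries were made by mRNA-seq, with 3 libraries for each region and treatment. The deposited values are raw read counts per gene, which the authors made by HISAT2 alignment and featureCounts (versions not given in the sources used here). The methods and the labels name different genome builds, and the largest gene end on chromosome 1 of the table, 282724300, goes with neither, so the table's coordinates are given without a build. A stray header line inside the table exchanges 2 CEA EA columns, and the first header was used. 1 count was worth 0.0537 to 0.0760 CPM.

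Tests used edgeR 4.0.16 in R 4.3.3 (limma 3.58.1), with filterByExpr, TMM factors and quasi-likelihood tests, on the libraries of the groups compared, and p-values were adjusted by Benjamini-Hochberg over all genes tested with a threshold of 0.05. The SE of a log2 fold change was its size over the square root of F. Printed CPM values were scaled by TMM over all 24 libraries. Correlations used log2 CPM with a prior count of 2. DESeq2 1.42.0, RLE factors, no filter, a replicate block, a joint fit of all groups and leaving out each library were alternatives. The scripts were tested on simulated data. Named genes were the members, the nearest genes by Pearson correlation among those with a mean of at least 1 CPM over all libraries, and from each list any gene called in a treatment comparison, or else the 2 with the smallest p from NC to HT and from HT to EA in each region, and the 2 with the smallest p per direction between regions. The gene nearest to Sstr2 in the CEA is not reported here. The members and the lists were chosen with earlier results of these data known.

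Replicate numbers were checked for pairing by correlating deviations from group means. Every same-numbered correlation exceeded 0.1 only for PVN NC with CEA NC (0.29, 0.13 and 0.20) and for CEA NC with CEA HT (0.24, 0.18 and 0.29), a hint from the data and not from the labels.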

Additional observations from a re-analysis of the deposited data

How the results depend on the processing

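The calls of Sst, Sstr1, Sstr2 and Sstr3 in CEA against PVN over 4 treatments held in every alternative, with Sst from -0.71 to -0.55 and Sstr4, never called, from -0.24 to -0.076. The number of members called went from 0 to 1 with DESeq2 at an unadjusted p in PVN HT against NC, EA against HT, SEA against HT and EA against SEA, in CEA EA against NC and in both region interactions, and to 2 in PVN operated against NC. It went to 1 with DESeq2 at an adjusted p in PVN EA against HT and PVN operated against NC, and to 1 without a filter in PVN EA against HT. Leaving out single libraries gave 0 to 1 members in PVN HT against NC, EA against NC and operated against NC, the 1 being Sst without NC replicate 2. With the replicate block, Sstr2 in CEA against PVN of NC was -0.92 (edgeR adjusted p = 0.0450) and no other call of a member changed. Sstr1 in PVN operated against NC turned from -8.86e-04 to 0.00546 with DESeq2, 0.00597 with RLE factors and 4.06e-04 without a filter. Leaving out single libraries turned the sign of values near 0: Sst in CEA EA against HT (-0.31 to 0.10), HT against NC (-0.035 to 0.45) and operated against NC (-0.082 to 0.33), Sstr1 in CEA operated (-0.26 to 0.024) and PVN operated (-0.031 to 0.034), Sstr2 in CEA HT against NC (-0.63 to 0.18) and PVN EA against HT (-0.056 to 0.11), Sstr3 in CEA EA against HT (-0.36 to 0.33) and HT against NC (-0.57 to 0.10), and Sstr4 in CEA HT against NC (-0.42 to 0.26), CEA operated (-0.29 to 0.38) and CEA against PVN of NC (-0.19 to 0.50). The cause was not tested. Counts per library were lowest for Sstr4, at 23 to 81.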
